A study of Mus musculus with 6 samples.

Results

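B cells were described among the immune cells of colon tumours in mice, which carried either the Control or the SOX17KO genotype. A barcode was taken as a B cell when it held at least 200 genes, at most 10% mitochondrial UMIs (unique molecular identifiers, 1 per captured RNA molecule), at least 3 UMIs over Cd79a, Cd79b and Ms4a1 with at least 1 of Ms4a1, under 10 of Jchain, and none of Siglech, Cd3d, Cd3e, Cd3g or Csf1r. This rule gave 569 B cells, 1.68% of the 33862 barcodes that passed the first 2 limits. The sort kept living (7-AAD-negative) cells with CD45 on their surface and without the epithelial antigen EpCAM. The 6 libraries form 3 pairs of a Control with a SOX17KO library: a 1-week pair, a 2-week pair, and a pair whose labels give no time, called untimed here. Per the series description, tumours of 5 mice were combined for each condition. Whether the pool was made anew per collection, and the strain, age, tumour model, Cre driver and alleles behind the SOX17KO label, are not given in the sources available. The labels do not say that these 3 collections were independent experiments, so p values measure the spread between these pairs only.

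B cells recognise antigen through the B cell receptor, a surface immunoglobulin that signals through the partner chains encoded by Cd79a and Cd79b. Naive follicular B cells carry IgM and IgD together and express the low-affinity IgE receptor CD23 (Fcer2a) and complement receptor 2 (Cr2). After activation a B cell can switch its heavy chain to IgG, IgA or IgE, enter a germinal centre, or become an antibody-secreting plasma cell, and B cells present antigen on MHC class II.

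The libraries held 3163 to 7495 barcodes and 18281322 to 52150180 UMIs. Between any 2 libraries 4 to 13 barcodes were shared, and 1 barcode was a B cell in both. The B cells held 68667 to 638515 UMIs per library, with a median of 2599 to 4204 per cell. The 1-week libraries and the 2-week Control library rest on 16 to 22 B cells each. Sox17, the gene in the genotype label, had 0 UMIs in the B cells of every library, so that these cells give no check of the genotype. Square brackets hold 95% intervals, which reflect the counting of cells and no other error.

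How common B cells were in each library was asked first. In the untimed pair they were 2.57% of Control barcodes (177 of 6883) [2.21, 2.97] and 2.95% of SOX17KO barcodes (188 of 6382) [2.54, 3.39]. At 1 week they were 0.364% (20 of 5492) [0.223, 0.562] and 0.301% (22 of 7309) [0.189, 0.455]. At 2 weeks they were 0.335% of Control (16 of 4783) [0.191, 0.543] and 4.85% of SOX17KO barcodes (146 of 3013) [4.11, 5.67]. The 2-week SOX17KO library was thus the highest of the 6, and the 2-week Control library lay with both 1-week libraries. By pair the log2 odds of SOX17KO minus those of Control came to 0.20 (untimed), -0.28 (1-week) and 3.88 (2-week). Its mean was 1.27 ± 2.28 (SD, n = 3 pairs), with p = 0.75 (exact permutation of the pairs' signs, two-sided, which cannot go below 0.25). Without the 2-week pair the mean was -0.04. A share depends on every other class in the library as well as on the B cells.

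**Figure D1:**
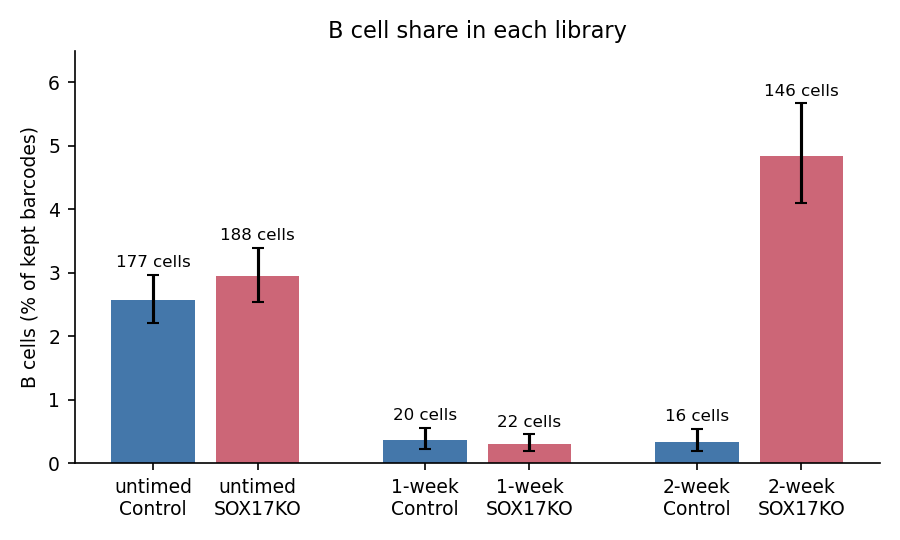
Share of B cells among kept barcodes (vertical axis, percent) in each of the 6 libraries, with exact 95% intervals as error bars and the number of B cells above each bar. The 2-week SOX17KO library stands at 4.85% against 0.335% in its Control, while the other pairs lie close together.

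The cells carried the genes that define B cells. Ebf1 and Pax5, transcription factors that set and keep B cell identity, had a UMI in 98.9 to 100% and in 80.0 to 93.8% of B cells per library. In Cd3-positive T cells of the same libraries (at least 3 UMIs over Cd3d, Cd3e and Cd3g, and none of Cd79a, Cd79b, Ms4a1 or Csf1r) the same genes were found in 1.88 to 4.18% and 0 to 0.115%. Bank1, an adaptor of the B cell receptor, was detected in 96.6 to 100% of B cells and in at most 1.07% of T cells. Cd74, the MHC class II invariant chain, was found in every B cell. Ranked by the ratio of CPM (counts scaled to a library sum of 1000000) in B cells to those in all other kept barcodes, the first 20 genes included Ms4a1, Bank1, Pax5, Cd79a, Gm31243, Fcmr, Cr2, Ighd, Cd22, Chst3, Ebf1, Fcrl1, Gm43388, Pou2af1, Fcer2a, Cd79b, Blk, Vpreb3 and Ly6d. Cd79a, Cd79b and Ms4a1 chose the cells, and no test is made of this ranking.

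At the edge of the rule, 34 members held exactly 3 marker UMIs and 29 barcodes missed it with 2. Ebf1 was detected in 100% of the former and 93.1% of the latter, and Pax5 in 85.3% and 69.0%. Of 713 barcodes that reached the marker minimum with an Ms4a1 UMI, 127 were left out for a Cd3 UMI and 19 for Csf1r. Siglech left out 1 and Jchain 24, and a barcode may count under several. Of the 24, 19 were in the untimed SOX17KO library. A further 117 barcodes met every other limit but had no Ms4a1 UMI, 60 of them in the untimed SOX17KO and 35 in the untimed Control library.

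**Figure D2:**
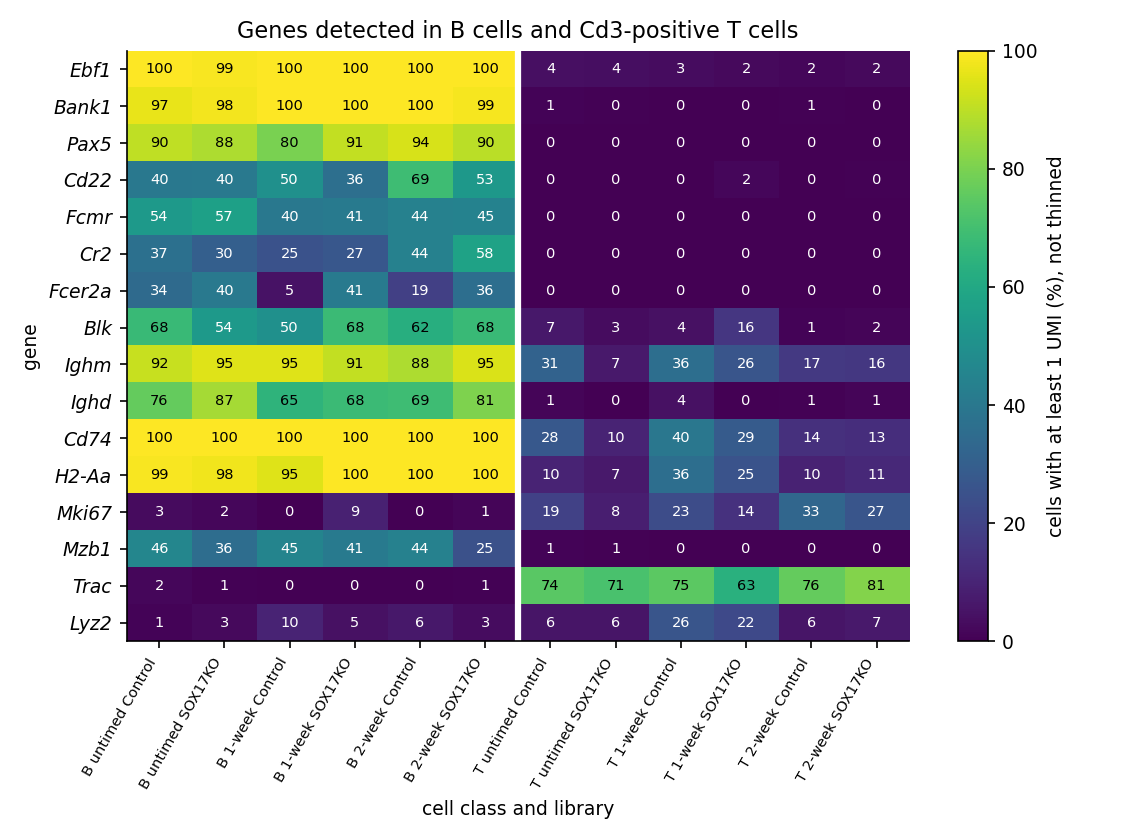
Percent of cells with at least 1 UMI (colour and numbers, not thinned) for 16 genes (rows) in B cells and Cd3-positive T cells of each library (columns). Ebf1 reaches 98.9 to 100% of B cells, while the T cell gene Trac stays at or near 0 in B cells.

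Genes of lists made for other cell types had UMIs in B cells, and their sums differed between libraries. Whether B cells express members of these lists themselves was not tested. The 12 T cell genes of a fixed list summed to 0 to 102 CPM in B cells, and all 12 had at least 1 UMI in some library. The 14 monocyte and macrophage genes summed to 1733 CPM in the 1-week Control library and to 212 to 357 CPM in the other 5. The 8 mast cell and basophil genes summed to 218 CPM in the untimed Control library, in 0.565% of its B cells, and to 0 to 14.6 CPM elsewhere. The 8 neutrophil genes summed to 282 CPM there and to 13.3 to 43.7 CPM in the other libraries. Retnlg of the neutrophil list, and Krt20, Muc2, Fabp2 and Elf3 of the epithelial list, were at 0 in all B cells. The 10 NK and ILC genes summed to 350 CPM in the 1-week Control library and to 10.2 to 108 CPM elsewhere. The 10 fibroblast and endothelial genes summed to 277 to 716 CPM, in 55.0 to 72.7% of B cells per library, and in the untimed Control library to 390 CPM against 170 CPM in its other barcodes. The 8 plasmacytoid dendritic genes summed to 470 to 645 CPM, in 61.2 to 81.2% of B cells, against 984 to 1371 CPM in the other barcodes. Bst2 and Ccr9 of this list also belong to the interferon and migration lists used for B cells below. Among B cells with no UMI of 8 genes of other cells (Trac, Trbc2, Lyz2, C1qa, S100a8, Epcam, Krt8 and Col1a1), the genotype log2 fold changes given below were, for example, 1.01 for Alcam, -2.16 for Rbm47 and -1.47 for Hsph1. B2m went from -0.26 to -0.09 and Actg1 from -0.70 to -0.43. The part of transcripts from other cells in the gene differences was not tested.

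Most heavy-chain RNA was of the unswitched classes. Ighm made up 62.2 to 87.0% and Ighd 13.0 to 26.8% of heavy-chain UMIs, and both had a UMI in 65.0 to 85.1% of B cells. Among cells with at least 3 heavy-chain UMIs, the switched share was 6.1% in the untimed Control library (10 cells) and 2.2% in its SOX17KO partner (4 cells). The 1-week pair had 0 switched Control cells and 2 switched SOX17KO cells, while the later pair had 2 and 4. Ighg1 supplied 63 UMIs in the untimed SOX17KO library, Ighg2c 90 and Ighg2b 40 in the untimed Control library, and Ighg3 56 in the 1-week SOX17KO library, where 2 cells had 3 or more. The mean log2 odds difference of the switched share was -0.54 ± 2.54 (SD, n = 3 pairs; exact permutation of signs, two-sided p = 0.75), with opposite signs between pairs. Among cells with at least 3 light-chain UMIs, 72.7 to 93.8% had more kappa than lambda. T cells, which should lack these genes, also held their RNA. Ighm had a UMI in 7.02 to 36.3% of T cells and Igkc in 50.5% of those of the untimed SOX17KO library, whereas Ighd had one in at most 4.40%.

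Mki67, which marks dividing cells, had a UMI in 12 of 569 B cells, at 0 to 9.09% per library, against 8.39 to 33.1% of T cells, whose median depth was higher (3517 to 6473 UMIs). Of 10 precursor genes, Igll1, Dntt, Rag1 and Rag2 had no UMI in any B cell and none of the list passed the expression filter. Mzb1, a chaperone of antibody assembly, had a UMI in 24.7 to 45.8% of B cells, and Cd5, which marks B-1a cells, in 0 to 2.82%.

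The share of B cells in each state was compared after thinning every cell to 1000 UMIs, which left out 2 shallower cells. Of 27 readouts, 18 had a positive cell in each pair and could be tested. With 1 random draw, 4 of the 18 went the same way in all 3 pairs, and every p was at least 0.25 (exact permutation of signs, two-sided; adjusted p = 0.82 by Benjamini-Hochberg over 18 for these 4). Ighd was found in 47.5, 35.0 and 37.5% of Control cells and in 63.6, 40.9 and 47.6% of SOX17KO cells (untimed, 1 week, 2 weeks). Fcer2a was found in 14.7, 5.0 and 0% of Control and 18.2, 13.6 and 13.1% of SOX17KO cells. The 0 of 16 thinned cells in the 2-week Control library allow a share of up to 18.75% at 3 counts (exact 95% upper limit 20.6%), and without thinning 3 of these 16 cells had an Fcer2a UMI. In T cells Ighd and Fcer2a reached at most 1.10% and 0.302%. These 2 readouts kept their direction in all 3 pairs when the share was averaged over all possible draws, at a mean log2 odds difference of 0.55 for Ighd and 1.03 for Fcer2a, and without thinning. They did not at 500 UMIs, where Ighd was -0.75 at 2 weeks and Fcer2a -0.18 in the untimed pair. Nor did they in cells with at least 5 marker UMIs, where Ighd was -1.10 and -1.39 in the timed pairs and Fcer2a -0.78 at 2 weeks. Cd69, an early activation marker, and Gpr183, a migration receptor, were lower in SOX17KO in all 3 pairs of the draw, at -0.42 and -0.69, but not over all draws. With 16 to 22 cells a library, the direction of such a share can change with the draw.

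Gene levels inside B cells were then compared between the genotypes. UMIs were summed over the B cells of each library and tested with edgeR's quasi-likelihood test, with collection and genotype as terms. Of 4777 genes that passed the expression filter, 0 were called at a Benjamini-Hochberg adjusted p under 0.05 (0% called), and the lowest adjusted p was 0.16. At an unadjusted p under 0.05 there were 222 genes (4.65%), 84 higher (1.76%) and 138 lower (2.89%) in SOX17KO. DESeq2 called 0, limma-voom 1 (Rpl37a), and without the expression filter edgeR called 23. These included S100a8, S100a9, Cpa3, Gata2, Col3a1 and Dcn of the lists made for other cell types, and also Rpl37a, Hsph1 and Rbm47. All changes below are therefore described by their values. Direction was the same in all 3 pairs for 26.8% of the genes tested, 14.2% higher and 12.6% lower.

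By rule, 24 genes are named: the 12 higher and the 12 lower genes with the lowest unadjusted p among those with 1 direction in all 3 pairs. Their shared direction is a condition of the choice and no result. The groups did not overlap for 11 of them. Over all genes tested, which were not chosen this way, the share was 6.62% (4.29% higher, 2.32% lower). Choice by low p and 1 direction favours groups that do not overlap, so that the 11 are no result either.

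Of the 12 higher genes, 8 encode ribosomal proteins: Rpl37a, Rpl38, Rps29, Rpl37, Rps28, Rps27rt, Rps21 and Rpl36. Rpl37a, on chromosome 1 (72711290 to 72713813 of mm10), stood at 1945, 3350 and 2746 CPM in the untimed, 1-week and 2-week Control libraries and at 3610, 4927 and 5613 CPM in the SOX17KO libraries. All 3 SOX17KO libraries were above all 3 Controls. The log2 fold change was 0.81 (SE 0.17; edgeR adjusted p = 0.16). In T cells of the same libraries it was 0.78, and the edgeR test of the B cell against the T cell difference gave an adjusted p of 1 for each of the 8. A list of cytosolic ribosomal protein genes was added after the values were seen, and it does not hold Rps27rt. Of its 79 genes tested, 33 were higher and 46 lower, 10 and 4 of them at an unadjusted p under 0.05, with a median of -0.10 against 0.00 for all genes. Short ribosomal protein genes have many near-identical copies in the genome, and the part of these copies in the counts was not tested.

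Among the other higher genes, Alcam, an adhesion molecule on chromosome 16 (52248996 to 52454074 of mm10), was at 153, 335 and 13.3 CPM in Control and 325, 522 and 213 CPM in SOX17KO B cells. The groups overlapped, since the 1-week Control library was above 2 of the SOX17KO libraries, and the 2-week Control value is 1 UMI. Its log2 fold change was 1.18 (SE 0.32; edgeR adjusted p = 0.44). It differed from that in T cells, -0.32, by 1.66 (SE 0.34; edgeR adjusted p = 6.8e-04). Satb1, a chromatin organiser of lymphocytes, was at 1749, 1456 and 915 CPM in Control and 2763, 1793 and 1870 CPM in SOX17KO, without overlap. Cd55, an inhibitor of complement, had a log2 fold change of 0.85, and Atg16l1, an autophagy factor, 1.25.

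Rbm47, an RNA-binding protein gene on chromosome 5 (66016549 to 66173118 of mm10), had the lowest value of the 24, with a log2 fold change of -2.05 (SE 0.43; edgeR adjusted p = 0.16). It was at 108, 58.3 and 305 CPM in Control and at 46.4, 41.0 and 25.97 CPM in SOX17KO B cells. The groups did not overlap, on 69, 4 and 23 UMIs against 24, 4 and 15. Of all its UMIs in B cells 13.7% were in 1 cell, and 5 cells held those of the 2-week Control library. The log2 fold change in T cells was 0.10, and the difference between the classes was -2.26 (SE 0.44; edgeR adjusted p = 2.4e-04). Ldha, which encodes lactate dehydrogenase A, was at 116, 437 and 212 CPM in Control and 65.7, 102 and 98.7 CPM in SOX17KO, also without overlap (log2 fold change -1.26). Actg1, cytoplasmic actin, and Ftl1, ferritin light chain, had -0.70 and -0.93. Of the other lower genes, Ankrd33b had -1.27 and Pitpnc1 -0.99, while Abtb2 had -1.38 with 26.2% of its UMIs in 1 cell.

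**Figure D3:**
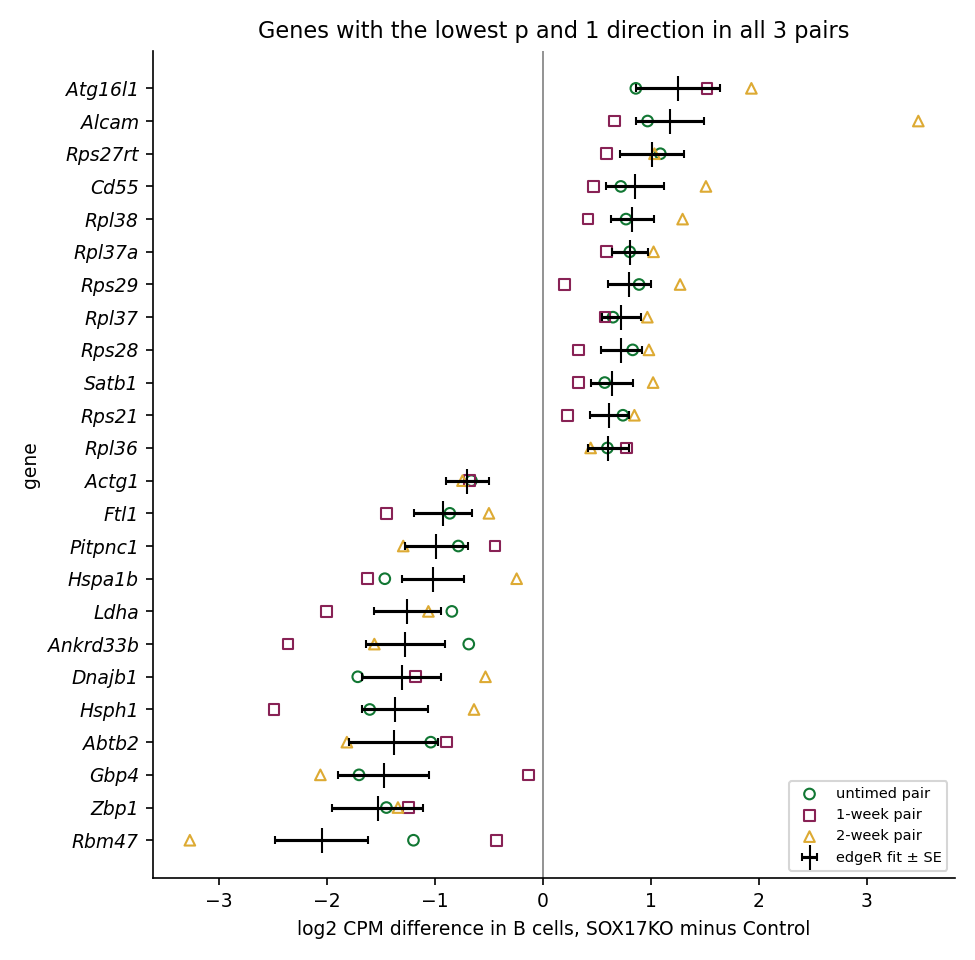
Difference in log2 CPM, SOX17KO minus Control (horizontal axis), for the 24 named genes in the B cells of each pair (open symbols), with the edgeR fit and its SE (black). The ribosomal protein genes among the 24, all chosen as higher ones, lie between 0.61 and 1.01 in the fit. Of 79 cytosolic ribosomal protein genes tested, 33 were higher and 46 lower. Rbm47 lies lowest of the 24 at -2.05, and no gene passed the adjusted threshold.

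Heat shock genes, which encode protein-folding chaperones induced by stress and by tissue dissociation, were among the lower ones. Hsph1, on chromosome 5 (149614287 to 149636376 of mm10), was at 200, 320 and 557 CPM in Control and 65.7, 51.2 and 357 CPM in SOX17KO B cells. Each SOX17KO library was below its partner, although the 2-week SOX17KO value was above 2 Controls. The log2 fold change was -1.37 (SE 0.31; edgeR adjusted p = 0.21). Dnajb1, a cochaperone, had -1.31, Hspa1b -1.01 and Hspa8 -0.69. Hspa1a had -1.39 and did not share its direction in the 2-week pair, at 305 CPM in Control and 320 in SOX17KO. Without the 2-week pair 7 of 4876 genes were called, all of them lower. Hsph1 and Hspa1a were among these (edgeR adjusted p = 0.041 and 0.013), at log2 fold changes of -1.93 and -2.45. The others were Cxcl2, Fabp5, Ifitm3, Ikzf2 and Il1b, which are not heat shock genes. In these pairs the neutrophil list summed to 282 and 21.3 CPM (untimed Control and SOX17KO B cells) and 43.7 and 41.0 CPM (1 week). The monocyte and macrophage list summed to 357 and 307 CPM, and to 1733 and 297 CPM, in that order. The part of transcripts from other cells in these calls was not tested. Of the 26 immediate early and dissociation genes 25 were tested: 19 were lower and 6 higher, 7 lower in all 3 pairs, with a median of -0.21. By pair the medians were -0.41, -1.18 and 0.26.

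Hspa1a and Hspa1b are near-identical neighbours on chromosome 17 whose reads the counting may split. The stretch around a heat shock element in both promoters is printed as a description of the promoters, and it lies outside the transcript. It comes from the 250 bases before the RefSeq start (GRCm38.p6), with the motif GAANNTTC in capitals. The motif reads the same on both strands and begins 104 bases before the start in both genes.
Hspa1b: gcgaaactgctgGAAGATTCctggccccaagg
Hspa1a: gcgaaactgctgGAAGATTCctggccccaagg
The printed bases are chr17:34959323-34959354 for Hspa1b and chr17:34972241-34972272 for Hspa1a, on the minus strand, and the copies do not differ in them. The motif occurred in 6.69% of 32851 promoters of that length, and not in the windows of Hsph1 and Dnajb1. A match is a description of the letters only.

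Interferon response genes were counted next. Of 30 interferon-gamma response genes 18 passed the filter, 17 lower and 1 higher, 10 of them lower in all 3 pairs. The median was -0.63, and -0.48, -0.21 and -0.94 by pair, against 0.00 over all genes. None was called. Gbp4, an interferon-induced GTPase, was at 25.1, 218 and 265 CPM in Control and 3.87, 195 and 58.9 CPM in SOX17KO, on 2 to 34 UMIs (log2 fold change -1.47, edgeR adjusted p = 0.44). It differed from that in T cells by -1.73 (edgeR adjusted p = 0.019). Irf8, a transcription factor of B and myeloid cells, had -0.59. Of 55 type I interferon genes 28 were tested, 24 lower and 4 higher, with a median of -0.32. By pair the medians were -0.57, -0.08 and -0.14, and 6 genes were lower in all 3 pairs. In B cells the 55 genes summed to 4138 and 3052 CPM in the untimed Control and SOX17KO libraries. The sums were 8286 and 6914 CPM at 1 week and 4855 and 4320 CPM at 2 weeks. In T cells they were, in that order, 4664 and 2608, 8684 and 7738, and 3880.5 and 4377 CPM. Zbp1, a sensor of nucleic acids, had -1.53 (25.1, 306 and 106 CPM against 5.80, 123 and 38.1), and Ifi27l2a -1.01.

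Of 23 MHC class I genes 22 were tested, 20 lower and 2 higher, 10 lower in all 3 pairs, with a median of -0.35. By pair the medians were -0.47, -0.28 and -0.12. In B cells the 23 genes summed to 4653 and 3661 CPM in the untimed Control and SOX17KO libraries. The sums were 8636 and 7304 CPM at 1 week and 6844 and 5878 CPM at 2 weeks. In T cells they were, in that order, 9197 and 7008, 10613 and 10600, and 9510 and 9024 CPM. The list sums of B cells were not tested against those of T cells. Psmb9 and Psmb8, immunoproteasome subunits, had -0.91 and -0.66, and Psme2, a proteasome activator, -1.22. B2m, the invariant light chain, had -0.26. Of the 14 MHC class II genes tested 9 were higher and 5 lower, with a median of 0.11. Cd74 was between 5535 and 6437 CPM in all 6 libraries.

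All 28 identity genes were tested, 18 higher and 10 lower, with a median of 0.10. Ebf1 had 0.57, at 4185, 1981 and 4284 CPM in Control and 4786, 4579 and 5863 CPM in SOX17KO, without overlap. Its log2 fold change in T cells, where at most 4.18% of cells had a UMI, was 0.63. Of 14 naive and follicular genes 9 were higher, with a median of 0.15. Fcer2a, on chromosome 8 (3681737 to 3694175 of mm10), was at 153, 43.7 and 39.8 CPM in Control and 238, 143 and 190 CPM in SOX17KO B cells (log2 fold change 1.03, SE 0.34; edgeR adjusted p = 0.54). Ighd had 0.54 and Ccr7, the receptor that guides lymphocytes to lymph nodes, 0.46. Of 16 marginal zone and B-1 genes 7 were tested, 6 lower and 1 higher, with a median of -0.43 but 0.51 at 1 week. Fcrl5, of marginal zone B cells, had -1.21 in the fit but 0.74 in the 1-week pair. Of 7 plasmablast genes tested 6 were lower, among them Mzb1 at -0.70. The plasmablast median was -0.33, and 0.11 without the untimed pair.

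The remaining lists follow by their counts. The BCR signalling genes were 16 higher and 13 lower, with a median of 0.00, and the chemokine receptor and migration genes 7 and 6, with 0.01. Both medians were below 0 in the untimed pair (-0.14 and -0.42) and above 0 in the timed pairs. The activation and NF-kB genes were 5 higher and 18 lower, with a median of -0.17, and -0.29, -0.39 and 0.50 by pair. Among them the costimulatory ligand Cd80 had -1.42 in the fit but 0.98 in the 1-week pair. The cytokine and survival receptor genes were 4 higher and 12 lower (median -0.20), with the pair medians at -0.29, 0.06 and 0.01. Tlr7, a sensor of RNA, had -1.34 and Ltb, lymphotoxin beta, -0.70, but both were above 0 in the 1-week pair (0.35 and 0.14). Pdcd1lg2, a ligand of PD-1, had -1.07. The translation genes were 3 higher and 19 lower (-0.21), glycolysis and hypoxia 5 and 14 (-0.30, but 0.12 in the 2-week pair), mitochondrially encoded 2 and 11 (-0.18), and proliferation 5 and 4 (0.11). Odc1, which starts polyamine synthesis, had -1.13. Of 15 germinal centre genes 4 were tested, 3 higher and 1 lower, with a median of 0.16.

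**Figure D4:**
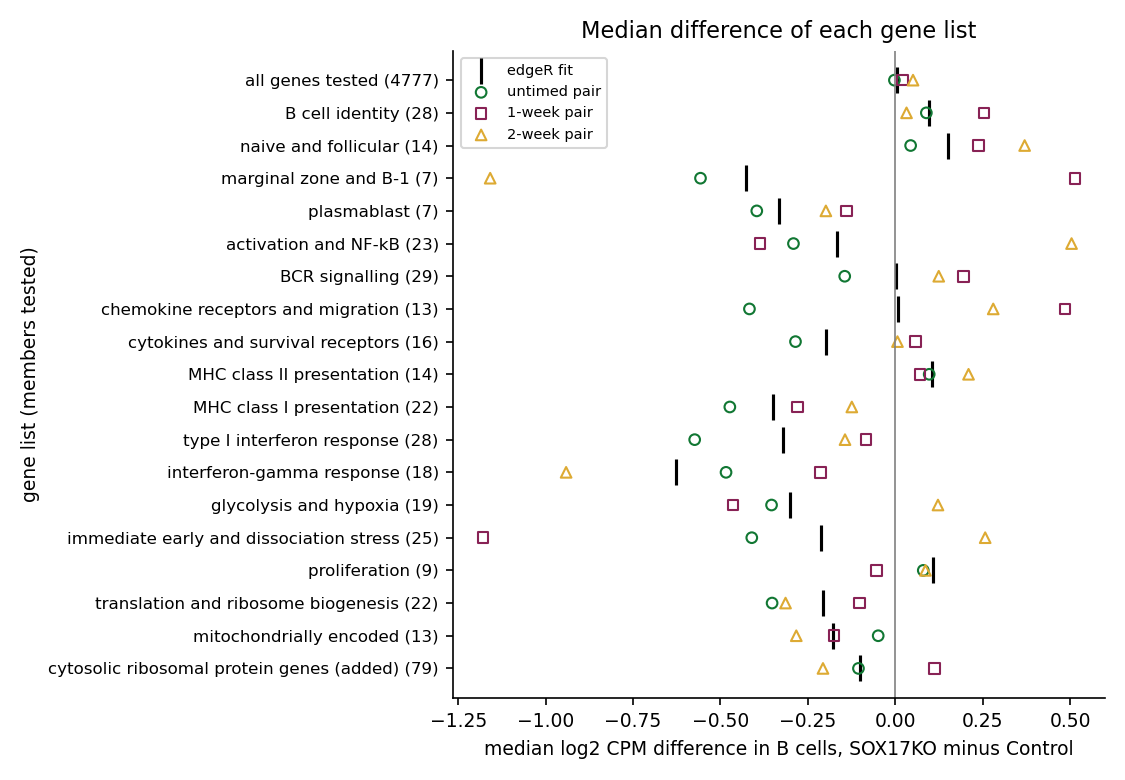
Median log2 CPM difference, SOX17KO minus Control (horizontal axis), of each gene list in B cells, for the edgeR fit (black line) and each pair (open symbols), with the number of members tested in brackets. The interferon-gamma list lies lowest at -0.63 and the median of all genes is 0.00.

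Whether a genotype difference was larger in B cells than in Cd3-positive T cells was tested as an interaction over 12 sums. Of 8566 genes 43 were called (0.502%), 15 higher and 28 lower in B cells relative to T cells, and 479 (5.59%) had an unadjusted p under 0.05. The called genes included Alcam, Rbm47, Gbp4 and Abtb2 of the named genes, and, picked after their values were seen, Sox5, at -2.33, and the inflammatory cytokine gene Il1b, at -1.86. The list also held Igkc, Iglc1 and Ly6d, which B cells express and T cells should lack, and the part of free RNA in their T cell values was not tested. Nor was the part of transcripts from other cells in the B cell values of Il1b. Without the untimed pair 3 genes were called, and without the 2-week pair 75. The T cells alone gave 0 called genes of 13338 tested (edgeR), with 984 at an unadjusted p under 0.05.

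Collections were compared with genotype as a term, a comparison added after the data were seen. The 3 collections are also 3 sets of libraries, so that time and library preparation cannot be told apart, and T cell values are given beside those of B cells. At 1 week against the untimed pair 116 of 5354 genes were called (2.17%), 92 higher and 24 lower. At 2 weeks against the untimed pair 57 were called (1.06%), 30 higher and 27 lower. At 2 weeks against 1 week 102 were called (1.91%), 14 higher and 88 lower. Leaving out 1 library moved these counts: the first was 52 without the untimed SOX17KO, 55 without the untimed Control and 250 without the 2-week SOX17KO library. The next was 23 and 35 without those untimed libraries and 135 without either 1-week library. The last was 59 without the 1-week SOX17KO and 67 without the 2-week Control library.

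The genes described here were picked from the called ones after their values were seen. Gbp2, a guanylate-binding protein, was at 14.1 and 3.87 CPM in the untimed Control and SOX17KO libraries, 524 and 410 CPM at 1 week, and 146 and 67.5 CPM at 2 weeks. Its log2 fold change at 1 week against untimed was 5.75 (SE 0.46; edgeR adjusted p = 7.3e-08). In T cells Gbp2 was at 38.5 and 33.8, 360 and 583, and 81.2 and 108 CPM. Rpl35 and Rpl36a, ribosomal protein genes, were also higher, with Rpl35 at 94.0 and 96.7 CPM in the untimed B cells and 517 to 942 CPM in the timed ones, and at 84.5 and 66.5 against 447 to 824 CPM in T cells. Cdh23, a cadherin, was at 381 and 331 CPM in the untimed B cells and 0 to 6.93 CPM in the others. T cells showed the same for Cdh23, at 336 and 327 against 4.3 to 8.7 CPM.

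**Figure D5:**
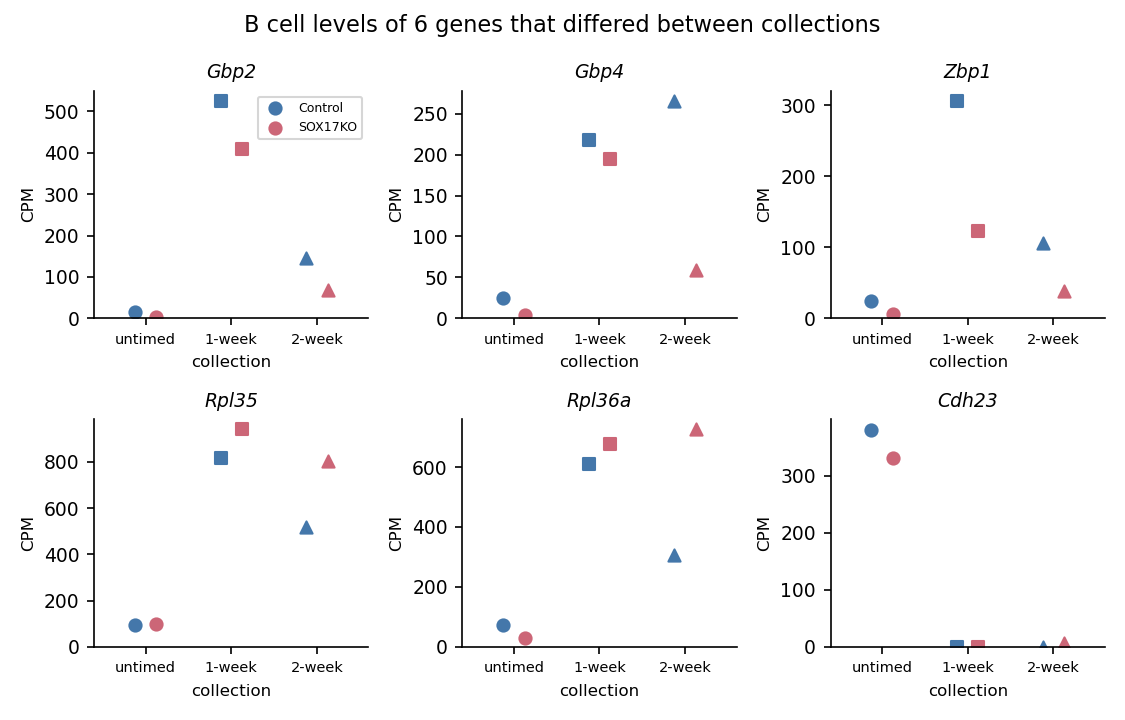
CPM in B cells (vertical axis, from 0) of 6 genes that differed between collections, for each collection (horizontal axis) and genotype (colour), 1 point per library. Gbp2 is highest at 1 week, and Cdh23 is high in the untimed pair only among these libraries.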

How the data were processed

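The authors deposited raw UMI counts per gene and cell barcode from 10x 3' v3 libraries, 1 matrix per library, for 32285 genes. Cell Ranger 6.0.1 and the mm10 build are named per the submitters' processing notes, and Cell Ranger 7.0.1 per the file headers. The intron setting and annotation release are not given in the sources used here.

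Barcodes under 200 genes (104 in all) or over 10% mitochondrial UMIs (641) were removed. Doublets were not removed beyond the rule; a Scrublet score (scanpy 1.11.5), as an alternative, marked 20 of the B cells. Shares have exact Clopper-Pearson 95% intervals; differences in log2 odds (0.5 added) over 3 pairs were tested by exact permutation of their signs, two-sided. Summed counts were tested with edgeR 4.0.16 (quasi-likelihood, TMM, minimum count 10, 2 residual degrees of freedom, Benjamini-Hochberg at 0.05); DESeq2 1.42.0 and limma 3.58.1 were alternatives. Shares by state gene used cells thinned to 1000 UMIs by 1 seeded draw; the exact mean over all draws was added after the data were seen. Pairs come from the labels, which tie 1 Control to 1 SOX17KO library at each collection.

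Named were genes called in the main test, of which there were none; then the 12 higher and 12 lower genes of lowest p with 1 direction in all 3 pairs, at least 30 UMIs and a UMI in 4 libraries; and, of each list, the 4 members of highest average log2 CPM and those with an unadjusted p under 0.01. Of these, a part is printed. Members and lists were chosen with earlier results of these data known. Of 528 list genes 1 (Marchf1) was not matched. Positions come from the GENCODE annotation of mm10, by identifier, and promoters from RefSeq. The edgeR script was tested on simulated data. Some genes covered by these rules are not reported here.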

Additional observations from a re-analysis of the deposited data

Results flagged for a closer look

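The genotype difference in B cell share did not keep its direction across collections. The log2 odds difference, SOX17KO minus Control, was 0.201 in the untimed pair, -0.279 at 1 week and 3.88 at 2 weeks. Each pair is 1 library against 1, and the difference between collections was not tested.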

How the results depend on the processing

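The mean log2 odds difference of the B cell share ranged from 1.18 to 1.37 over 7 other settings of the rule, and from -0.039 to 2.04 when 1 pair was left out. The count of genes called between genotypes, 0, became 1 with limma-voom, 23 without the expression filter, 15 at a mitochondrial limit of 5%, and 1 to 7 when 1 pair was left out; with no replicate block it was 0, with 66 at an unadjusted p under 0.05. The count against T cells, 43, ranged from 3 to 75 over pairs left out, 75 without the 2-week pair. Between collections, leaving out 1 library moved the counts between 52 and 250 (1-week against untimed), 23 and 135 (2-week against untimed), and 59 and 133 (2-week against 1-week). The 4 readouts with 1 direction became 7 at 500 UMIs, 8 without thinning, 11 over all draws and 2 at 5 marker UMIs, and 8 to 9 in 2 pairs.

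Several shares reversed. Ighd was -0.50 at 5 marker UMIs. Cd69 was 0.44 at 500 UMIs, 0.26 without thinning, 0.36 at 5 marker UMIs and 0.029 over all draws, against -0.42. Ldha was 0.31 in the draw, against its lower CPM, and -1.31, -1.20, -1.26 and -1.22 in that order of settings. The switched share was 0.20 at 5 marker UMIs and ranged from -1.97 to 0.45 over pairs left out. The cause was not tested. Of the genotype log2 fold changes in B cells computed for 46 genes none reversed in the 14 or 15 alternatives run for each; those against T cells and between collections were not recomputed gene by gene. Of the former, 661 values over the alternatives stayed on their side of the adjusted threshold and 21 passed it. With 16 to 22 B cells in 3 libraries, 1 UMI there is worth 10.2 to 14.6 CPM.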
